A study of Homo sapiens with 6 samples.

Results

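The 10 genes described here encode the enzymes that crosslink collagen and elastin, 3 metalloproteinases of collagen breakdown and their inhibitors: the lysyl oxidases LOX, LOXL1, LOXL2, LOXL3 and LOXL4, the metalloproteinases MMP1, MMP2 and MMP14, and the tissue inhibitors TIMP1 and TIMP2. They were chosen by name, for their role and with earlier results of these data known, from the 22604 genes of the count table. Of them, 9 passed the filter on low counts, while LOXL4, with 1 to 3 counts in each library, did not. RNA-seq was done on SKNMC cells, a Ewing sarcoma line that carries the EWS-FLI1 fusion and expresses its own NFIB, in 3 groups of 2 libraries each. The first group carried V5-tagged full-length NFIB (NFIB WT), the second carried V5-tagged NFIB without its intrinsically disordered region (NFIB ΔIDR), and the third carried an empty expression vector (EV). NFIB is a transcription factor of the nuclear factor I family, and the comparison of both constructs asks what its disordered region contributes. The methods describe lentiviral vectors and puromycin selection for expression in these lines, so each library is a bulk RNA sample of a selected population, and fewer cells that express a gene cannot be told apart from less RNA of it per cell. Values are CPM, the counts of a gene scaled to a common library total after TMM normalization, and each SD is over both libraries of its group.

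The libraries held 6664231 to 8465572 counts, so that 1 CPM stood for 6.67 to 8.37 counts. NFIB itself had 969 and 1051 CPM in the NFIB WT libraries, 2227 and 2332 CPM in the NFIB ΔIDR libraries, and 176 and 145 CPM in the EV libraries, so the groups carried unequal amounts of NFIB RNA. NFIB ΔIDR transcripts lack the deleted region, so counts per transcript may differ between both constructs. By counts, NFIB RNA in all, the cells' own included, was 2.26-fold higher with NFIB ΔIDR than in NFIB WT cells. Differences between both constructs are therefore differences in construct and in NFIB RNA level, which cannot be told apart. The 2 NFIB WT libraries differed more from each other (SD of the log2 difference over genes 0.38) than those of NFIB ΔIDR or EV (0.28 each). All 7 genes of the Ewing sarcoma marker list that the count table held were expressed in every library, with NKX2-2, NR0B1 and STEAP1 among them. CD99, also on that list, was absent from the count table and could not be checked. Of the immune markers, CD14 and CD3E had 0 to 3 counts, whereas PTPRC had 251 to 312 CPM in all groups.

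Lysyl oxidases are secreted, copper-dependent enzymes that oxidise lysine side chains of collagen and elastin, after which the chains form covalent crosslinks. MMP1, the interstitial collagenase, cuts the triple helix of fibrillar collagen, MMP14 does so at the cell surface and also activates the gelatinase MMP2, and TIMP1 and TIMP2 block the active site of such proteases. TIMP2 also links proMMP2 to MMP14 at the membrane, and MMP14 is inhibited poorly by TIMP1.

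LOX lies at chr5:121398890-121414108 on the minus strand of hg19 and TIMP1 at chrX:47441807-47446188 on the plus strand. Both were higher with NFIB WT than in either other group, and the stretches that hold motif matches before their starts are therefore shown, taken from the 250 bases before the start in RefSeq (GRCh38.p14) and placed in hg19 by exact match. Positions count backwards from the first transcribed base in RefSeq, and capitals mark TTGGC (the core of the nuclear factor I site), ACGTG (the core of the hypoxia element), GGAAGGAA (adjacent ETS cores) and TGAGTAA (a variant of the AP-1 site) on either strand.
LOX, bases −195 to −171, chr5:121414125-121414149, minus strand: tccctgtgcaACGTGtctgggggga
LOX, bases −119 to −91, chr5:121414045-121414073, minus strand: ttgCACGTttccaatcgcattACGTGaac
LOX, bases −52 to −28, chr5:121413982-121414006, minus strand: aactttgcaaACGTGccagaaagtt
TIMP1, bases −250 to −146, chrX:47441585-47441689, plus strand: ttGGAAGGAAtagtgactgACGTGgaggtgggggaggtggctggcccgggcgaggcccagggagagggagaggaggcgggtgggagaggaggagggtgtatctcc
TIMP1, bases −138 to −114, chrX:47441697-47441721, plus strand: ggcccgccccTTGGCttctgcactg
TIMP1, bases −111 to −85, chrX:47441724-47441750, plus strand: ggtgggtggaTGAGTAAtgcatccagg
LOX had 4 ACGTG matches, at −185, −98 and −42 and, on the other strand, at −116, and neither TTGGC nor TGANTCA, the common AP-1 site, was found in its window. TIMP1 had 1 match each of GGAAGGAA at −248, ACGTG at −231, TTGGC at −128 and TGAGTAA at −101. In all 27305 promoters of the table, 41.3% held TTGGC, 18.7% ACGTG, 6.6% TGANTCA, 2.99% GGAAGGAA and 2.25% TGAGTAA, the last of which was chosen after its sequence was seen. The full palindrome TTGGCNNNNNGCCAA stood in 0.033% of promoters and in none of the 6 members with a table entry. LOXL1 held TTGGC at −152, and MMP14 held GGAAGGAA at −140 and ACGTG at −96, both on the other strand. LOXL3 and LOXL4 held none of the motifs that were searched for. The start used in the count table lies 242 bases upstream of the RefSeq start for LOX and 145 bases upstream for TIMP1, so most of the LOX window is transcribed in that annotation.

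Per kilobase of exon, LOX and TIMP1 were the most abundant of the 10 genes in every group. In NFIB WT cells TIMP1 averaged 50.8 and LOX 47.4 CPM per kb, in NFIB ΔIDR cells 27.8 and 27.9, and in EV cells 33.5 and 31.1. The ranges of both genes overlapped between the libraries of NFIB WT and of NFIB ΔIDR, so neither can be ranked above the other there. TIMP2 (12.7 to 13.3 CPM per kb over the group means) and MMP14 (9.95 to 11.2) followed in every group. LOXL2 and MMP2 formed the next level, at 0.872 and 1.11 CPM per kb in NFIB WT cells, 1.85 and 1.46 in NFIB ΔIDR cells and 1.32 and 1.31 in EV cells, and their ranges overlapped in NFIB ΔIDR and EV. LOXL1, LOXL3, MMP1 and LOXL4 were lowest. MMP1 had 0.715 CPM per kb in NFIB WT cells and 1.06 in NFIB ΔIDR cells, above LOXL3 in both, against 0.125 in EV cells, where it stood below LOXL3 at 0.288.

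**Figure D1:**
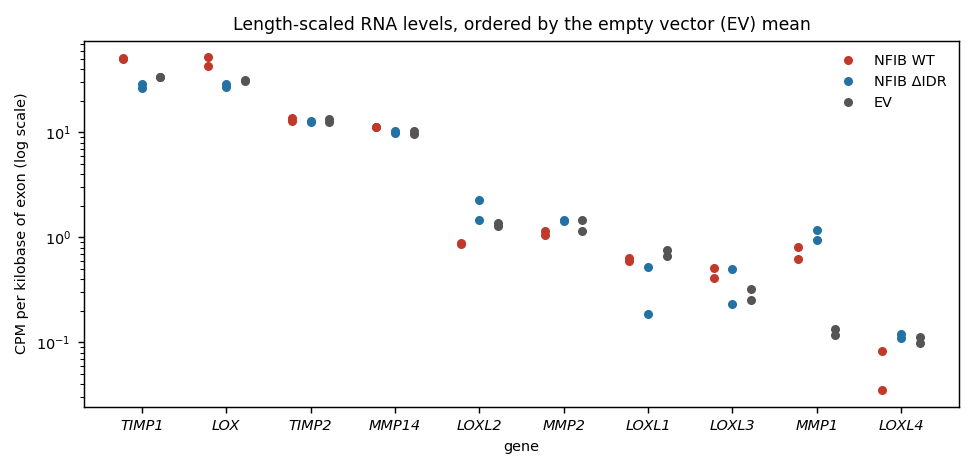
Level of each of the 10 genes in CPM per kilobase of exon (log axis), with a point for each library and the groups NFIB WT, NFIB ΔIDR and EV. TIMP1 and LOX lie at the top at 27.8 to 50.8 on group means, TIMP2 and MMP14 follow at 9.95 to 13.3, and LOXL4 is lowest in all 3 groups.

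Of the 9 genes tested with NFIB WT against EV by edgeR's quasi-likelihood test, LOX and TIMP1 rose at an adjusted p under 0.05 and none fell. Among all 13501 genes tested, 0.452% rose and 0.163% fell. The genes were chosen with earlier results of these data known, so here and below their counts are not those of an unselected set. At an unadjusted p under 0.05, 3 of the 9 were higher (LOX, TIMP1 and MMP1) and 0 lower, against 6.93% and 6.42% of all genes. DESeq2 called LOX higher and none lower. With NFIB ΔIDR against EV, MMP1 rose and none fell, where 0.296% of all genes rose and 0.356% fell. MMP1 passed the filter on low counts with both NFIB ΔIDR libraries and 1 NFIB WT library, and with 0 EV libraries, so it entered the test through the groups where it is high and its call cannot be read against that share. At an unadjusted p, 1 gene (MMP1) was higher and 1 (TIMP1) lower, against 7.77% and 7.42% of all genes, and DESeq2 called 0 in either direction, with no adjusted p for 6 of the 10. With NFIB WT against NFIB ΔIDR, LOX and TIMP1 were higher and LOXL2 was lower, where 5.52% of all genes were higher and 5.19% lower. At an unadjusted p the same 2 were higher and the same 1 lower, against 13.9% and 13.6% of all genes, and DESeq2 called LOX and TIMP1 there and 0 lower. Over the 9 genes, the log2 fold change had a median of 0.17, 0.02 and 0.15 in these 3 comparisons, where that of all genes was 0.00, 0.00 and −0.00. Both comparisons with EV use the same EV libraries, and each comparison shares a group with the others, so their results are not independent.

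**Figure D2:**
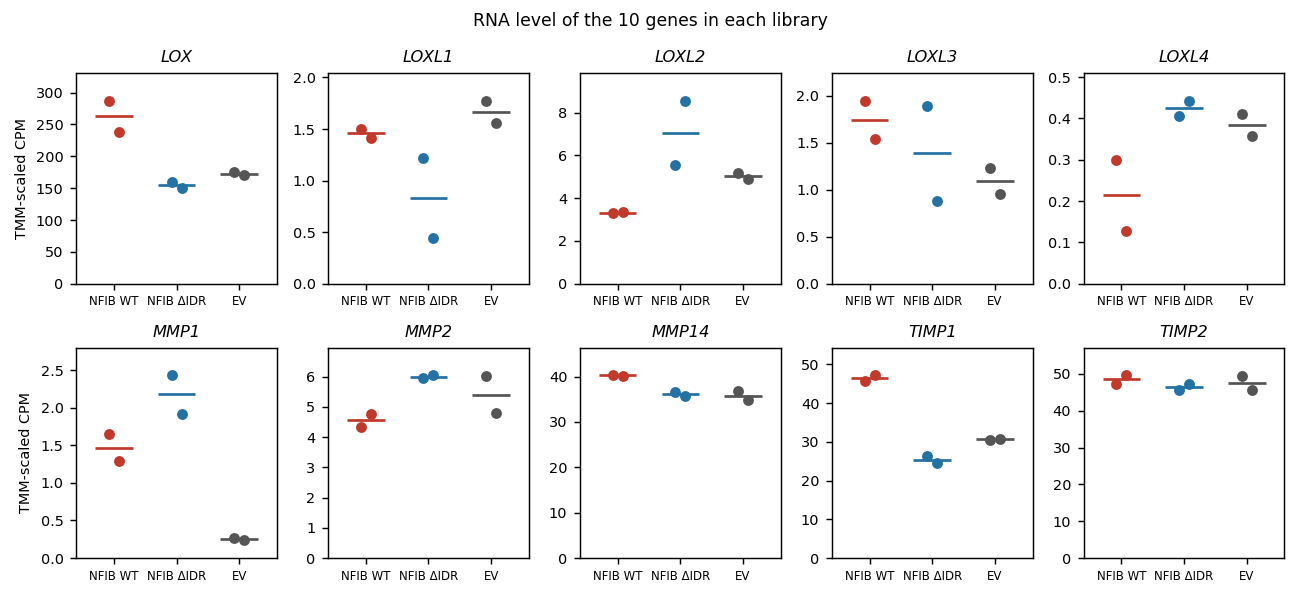
CPM of each gene in each of the 6 libraries (1 panel per gene, groups NFIB WT, NFIB ΔIDR and EV, points for libraries and bars for group means). LOX and TIMP1 are highest in both NFIB WT libraries, LOXL2 is lowest in both NFIB WT libraries, and MMP1 is near 0 only in the EV libraries.

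LOX, the main collagen and elastin crosslinking enzyme in these cells by level, had 287 and 238 CPM in the NFIB WT libraries, 159 and 150 CPM in the NFIB ΔIDR libraries, and 175 and 170 CPM in the EV libraries. Both NFIB WT libraries lay above all 4 others, both NFIB ΔIDR libraries lay below both EV libraries, and no groups overlapped. The group means were 263 ± 34.6 CPM in NFIB WT cells, 155 ± 6.14 with NFIB ΔIDR and 173 ± 3.31 with EV (SD, n = 2 each). Against NFIB ΔIDR, the WT construct gave 1.70-fold more LOX RNA (95% CI 1.45 to 1.98, log2 fold change 0.76 ± 0.10 SE, edgeR adjusted p = 0.00184). Against EV the difference was 1.52-fold (1.30 to 1.78, adjusted p = 0.0285). NFIB ΔIDR against EV gave a log2 fold change of −0.16 (95% CI −0.38 to 0.07, adjusted p = 0.528), so a fall of up to 0.38 on the log2 scale lies within the interval. The NFIB WT against EV result did not pass the threshold in a fit of those 2 groups alone (adjusted p = 0.148), without either NFIB ΔIDR library (0.129 and 0.128) or without either EV library (0.354 and 0.431). The result between both constructs missed it without NFIB ΔIDR library 1 (0.0502) or library 2 (0.0643). LOX shares 138 exon bases with SRFBP1 on the opposite strand, and SRFBP1 moved the other way, with 77.7 ± 6.64 CPM in NFIB WT cells and 109 ± 4.14 CPM in NFIB ΔIDR cells (log2 fold change −0.49, adjusted p = 0.0120). The part of shared reads in either value was not tested.

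LOXL2, a family member with scavenger receptor domains that also crosslinks basement membrane collagen, had 3.30 and 3.35 CPM in NFIB WT cells, 5.55 and 8.56 CPM with NFIB ΔIDR, and 5.19 and 4.90 CPM with EV. The 2 NFIB WT libraries were the lowest and nearly equal, both NFIB ΔIDR libraries were above both EV libraries, and NFIB ΔIDR library 2 stood apart from its partner. LOXL2 was thus 2.10-fold lower with NFIB WT than with NFIB ΔIDR (log2 fold change −1.07, 95% CI −1.67 to −0.47, edgeR adjusted p = 0.0310), on 22 and 26 counts with NFIB WT against 41 and 58 with NFIB ΔIDR. Against EV, neither NFIB WT (−0.60, 95% CI −1.22 to 0.03, adjusted p = 0.394) nor NFIB ΔIDR (0.48, 95% CI −0.07 to 1.02, adjusted p = 0.398) passed the threshold. The call between both constructs was lost in DESeq2 (adjusted p = 0.145), in a fit of those groups alone (0.0639), without NFIB ΔIDR library 1 (0.0590) or library 2 (0.269) and without EV library 1 (0.0615) or library 2 (0.0608). LOXL2, on chromosome 8, shares 120 exon bases with ENTPD4 on the same strand, which had 465 to 634 counts a library against 22 to 58 of LOXL2. It also shares 178 exon bases with LOXL2-AS1 on the opposite strand, which is absent from the count table. The part of shared reads in the LOXL2 values was not tested.

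The other lysyl oxidases were near the limit of detection. LOXL1 (chr15:74218330-74244478, plus strand), which acts mainly on elastic fibres, had 1.5 and 1.42 CPM in NFIB WT cells, 1.22 and 0.443 CPM with NFIB ΔIDR, and 1.77 and 1.55 CPM with EV. NFIB ΔIDR was lowest in both libraries, but its values rest on 9 and 3 counts and no comparison passed, with adjusted p values of 0.881 for NFIB WT against EV, 0.391 for NFIB ΔIDR against EV and 0.357 between both constructs. LOXL3 (chr2:74759385-74782817, minus strand) had 1.95 and 1.55 CPM in NFIB WT cells, 1.89 and 0.886 CPM with NFIB ΔIDR, and 1.23 and 0.956 CPM with EV. The NFIB ΔIDR values spanned those of EV, and no comparison passed (adjusted p from 0.544 to 0.781). LOXL4 (chr10:100007447-100027951, minus strand) had 2 and 1 counts with NFIB WT, 3 and 3 with NFIB ΔIDR, and 3 and 3 with EV, and the ratio of NFIB WT to EV, 0.544, had a counting interval of 0.0880 to 2.55. LOXL1 shares 335 exon bases with LOXL1-AS1 on the opposite strand, which held 66 to 110 counts against 3 to 13 of LOXL1, and LOXL3 shares 936 with HTRA2, and reads of these neighbours cannot be told apart from theirs if strand was not used in counting.

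LOX made up most of the family's RNA in all groups. Per kilobase, it held 96.1% and 95.7% of the summed lysyl oxidase level in the NFIB WT libraries, 91.7% and 90.7% in the NFIB ΔIDR libraries, and 92.5% and 93.0% in the EV libraries. LOXL2 took 1.61% and 1.96% with NFIB WT, 4.65% and 7.51% with NFIB ΔIDR, and 3.99% and 3.90% with EV. The LOX share was thus highest in both NFIB WT libraries and lowest in both NFIB ΔIDR libraries, and the LOXL2 share ran the other way. The ratio of LOX to LOXL2 per kilobase was 59.9 and 48.9 with NFIB WT, 19.7 and 12.1 with NFIB ΔIDR, and 23.2 and 23.9 with EV, with no overlap between any groups. These shares and ratios are descriptions without a test, as with 2 libraries against 2 no exact permutation test over samples can pass 0.05.

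MMP1, the interstitial collagenase at chr11:102660132-102668891 on the minus strand of hg19, was barely detected in EV cells. It had 11 and 10 counts (1.65 and 1.29 CPM) with NFIB WT, 18 and 13 counts (2.44 and 1.92 CPM) with NFIB ΔIDR, and 2 and 2 counts (0.273 and 0.239 CPM) with EV. All 4 libraries with an NFIB construct lay above both EV libraries, and the values of NFIB WT lay below those of NFIB ΔIDR. With NFIB ΔIDR against EV the pooled counts of 31 and 4 gave a ratio of 8.59 (95% counting interval 3.04 to 33.5), and edgeR gave an adjusted p of 0.0332. With NFIB WT against EV, 21 and 4 counts gave a ratio of 5.71 (1.93 to 22.9), and the adjusted p of 0.0958 did not pass. Between both constructs the log2 fold change was −0.58 (95% CI −1.40 to 0.24, adjusted p = 0.341), so no difference between NFIB WT and NFIB ΔIDR was detected. The counting intervals cover counting error only. The NFIB ΔIDR result was lost without NFIB ΔIDR library 1 (adjusted p = 0.387) or library 2 (0.303) and without EV library 1 (0.313) or library 2 (0.368), and DESeq2 gave no adjusted p for MMP1. The NFIB WT result passed without NFIB WT library 2 (0.0144) and with no filter on low counts (0.0164). MMP1 shares 223 exon bases with WTAPP1 on the opposite strand, which had 0 counts in 5 libraries and 1 in the other.

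MMP2 (chr16:55423612-55540603, plus strand), the gelatinase that also cleaves collagen of the basement membrane, had 4.35 and 4.77 CPM in NFIB WT cells, 5.95 and 6.05 CPM with NFIB ΔIDR, and 6.01 and 4.78 CPM with EV. EV library 2 lay just above the NFIB WT values and EV library 1 among those of NFIB ΔIDR, and no comparison passed, with log2 fold changes of −0.23 (95% CI −0.73 to 0.27) for NFIB WT against EV and −0.39 (−0.89 to 0.11) between both constructs. MMP14 (chr14:23305769-23318250, plus strand), its activator at the membrane, was the most abundant metalloproteinase of the 3, with 40.3 and 40.2 CPM in NFIB WT cells, 36.7 and 35.7 CPM with NFIB ΔIDR, and 36.7 and 34.8 CPM with EV. Both NFIB WT libraries were above the 4 others, yet the differences were small and did not pass, at a log2 fold change of 0.17 (95% CI −0.06 to 0.40, edgeR adjusted p = 0.486) against EV and 0.15 (−0.08 to 0.38, adjusted p = 0.373) against NFIB ΔIDR. For NFIB ΔIDR against EV the interval of the MMP14 difference was −0.21 to 0.25 on the log2 scale.

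TIMP1, an inhibitor of most secreted metalloproteinases, had 45.7 and 47.3 CPM in NFIB WT cells, 26.4 and 24.5 CPM with NFIB ΔIDR, and 30.6 and 30.7 CPM with EV. The groups did not overlap, and the order was the same as for LOX, with NFIB WT above EV and NFIB ΔIDR below it. TIMP1 was 1.83-fold higher in NFIB WT than in NFIB ΔIDR cells (95% CI 1.55 to 2.16, log2 fold change 0.87 ± 0.11 SE, edgeR adjusted p = 0.00138). Against EV the WT construct gave a 1.52-fold difference (1.29 to 1.78, adjusted p = 0.0339). NFIB ΔIDR against EV gave a log2 fold change of −0.27 (95% CI −0.51 to −0.02, unadjusted p = 0.0368, adjusted p = 0.290). The result against EV did not pass in DESeq2 (adjusted p = 0.105), in a fit of those 2 groups alone (0.144), without either NFIB ΔIDR library (0.129 and 0.128) or without EV library 1 (0.378) or library 2 (0.431). The result between both constructs missed the threshold without NFIB ΔIDR library 2 (0.0508). TIMP1 lies in an intron of SYN1, which runs on the opposite strand and shares no exon bases with it, and SYN1 had 42 to 69 counts a library.

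TIMP2 (chr17:76849059-76921469, minus strand) was close in level in all groups, at 47.4 and 49.7 CPM in NFIB WT cells, 45.7 and 47.2 CPM with NFIB ΔIDR, and 49.4 and 45.5 CPM with EV. The EV libraries enclosed or overlapped the range of both other groups. Its log2 fold change was 0.03 (95% CI −0.19 to 0.26) for NFIB WT against EV, −0.03 (−0.25 to 0.20) for NFIB ΔIDR against EV and 0.06 (−0.16 to 0.29) between both constructs, none of which passed. TIMP2 shares 224 exon bases on the same strand with CEP295NL, which had 7 to 16 counts a library. Per kilobase, TIMP1 stood 3.85 and 3.79 times above TIMP2 in the NFIB WT libraries, 2.30 and 2.07 times in the NFIB ΔIDR libraries, and 2.47 and 2.69 times in the EV libraries. The ratio of TIMP1 to MMP14 per kilobase was 4.45 and 4.62 with NFIB WT, 2.82 and 2.69 with NFIB ΔIDR, and 3.27 and 3.47 with EV. Both ratios were highest in both NFIB WT libraries and lowest in both NFIB ΔIDR libraries, a description without a test, whereas the ratio of TIMP1 to LOX stayed between 0.963 and 1.20 in all 6 libraries.

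**Figure D3:**
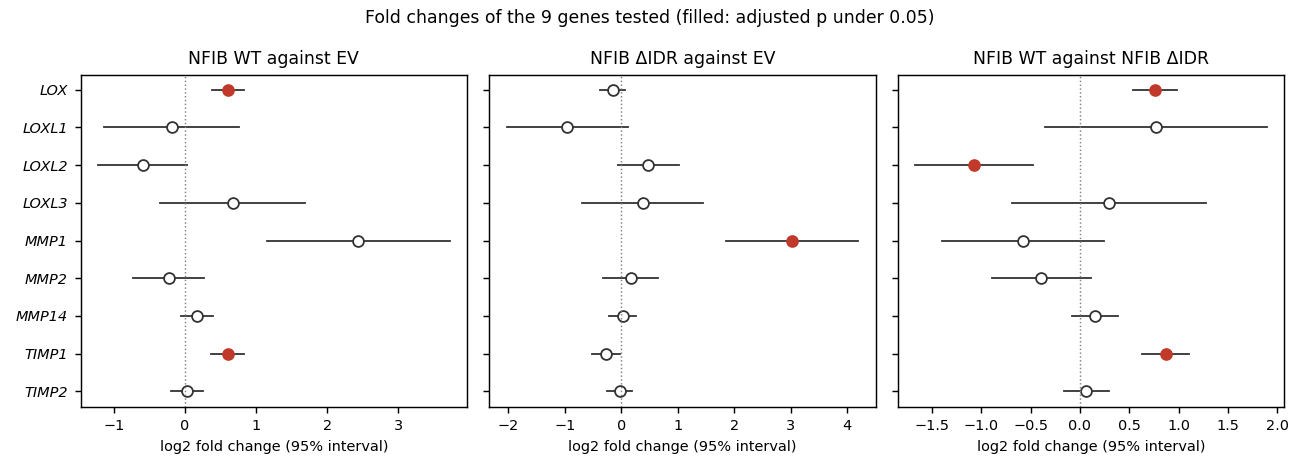
Log2 fold change of the 9 tested genes with 95% confidence intervals, for NFIB WT against EV, NFIB ΔIDR against EV and NFIB WT against NFIB ΔIDR, with filled points at an edgeR adjusted p under 0.05. LOX (0.61 and 0.76) and TIMP1 (0.60 and 0.87) are positive with NFIB WT against EV and against NFIB ΔIDR, LOXL2 is negative between both constructs (−1.07), and MMP1 is positive with NFIB ΔIDR against EV (a fitted value of 3.02).

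Groups that did not overlap were common in the table as a whole. With NFIB WT against EV, 5 of the 9 tested genes were higher in both libraries (21.7% of all genes tested), 3 were lower (21.2%) and 1 overlapped. For NFIB ΔIDR against EV the numbers were 2 higher (26.2%), 3 lower (27.1%) and 4 overlapping. Between both constructs 5 were higher with NFIB WT (27.6%), 3 lower (27.8%) and 1 overlapped. LOXL4, which was not tested, was lower with NFIB WT than in both other groups on 1 to 3 counts.

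The genes with the profiles most like those of the 4 called genes were taken from 10588 tested genes with a mean of at least 5 CPM, by the distance of mean-centred log2 CPM over the 6 libraries. Nearest to LOX were IER5, an immediate early gene (distance 0.123, Pearson r = 0.99), LUM, which encodes the collagen-binding proteoglycan lumican (0.161, r = 0.99), and B2M, the light chain of MHC class I (0.170, r = 0.99). LUM had 99.1 and 80.1 CPM in NFIB WT cells, 48.6 and 49.2 CPM with NFIB ΔIDR, and 58.8 and 60.1 CPM with EV, and in IER5, LUM and B2M alike NFIB WT library 1 was the highest, as it was in LOX. Nearest to TIMP1 were PRRT4 (0.0645, r above 0.99), PAPPA, a secreted metalloproteinase that cleaves IGF-binding proteins (0.135, r = 0.99), and CYP26B1, which degrades retinoic acid (0.191, r = 0.99). PAPPA had 627 and 606 CPM in NFIB WT cells, 355 and 351 CPM with NFIB ΔIDR, and 414 and 393 CPM with EV. Nearest to LOXL2 were CPB2-AS1 (0.249, r = 0.99), ARHGDIB (0.273, r = 0.97) and the transcription factor HAND1 (0.301, r = 0.96). MMP1 had no close neighbour, the nearest being ABCA10 at a distance of 1.25 (r = 0.88), DNAH10 (1.34, r = 0.94) and SLC9A9 (1.44, r = 0.92). These likenesses describe 6 libraries that share their group structure, and no p is given for them.

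**Figure D4:**
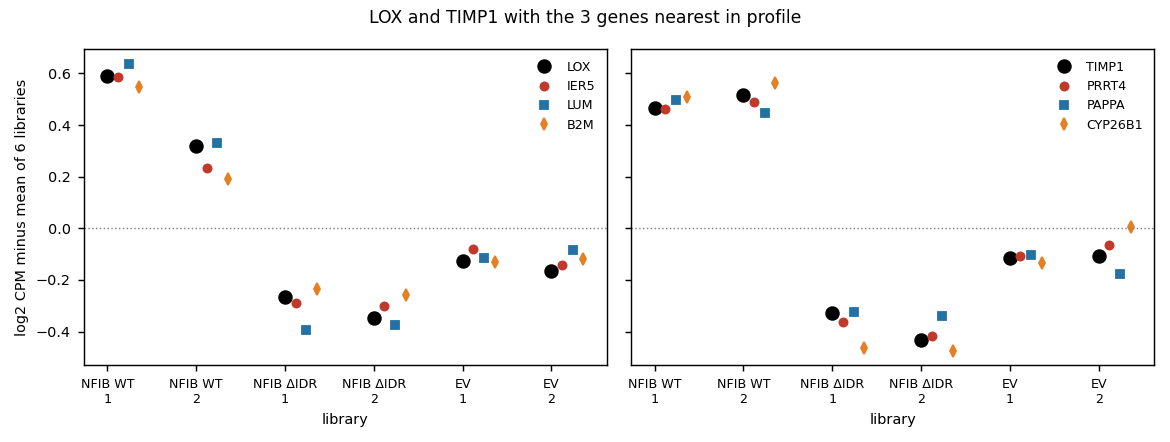
Mean-centred log2 CPM of LOX and TIMP1 in the 6 libraries (NFIB WT, NFIB ΔIDR, EV), each with the 3 genes of the nearest profile. IER5, LUM and B2M follow LOX within a distance of 0.170 and PRRT4 follows TIMP1 within 0.0645.

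Further genes were described from 10 lists, 7 of matrix crosslinking and breakdown and 3 of AP-1 subunits, hypoxia-induced genes and TGF-beta targets, with 82 genes tested. Of these, 1 was called with NFIB WT against EV (FOS, an AP-1 subunit, adjusted p = 0.00152), where 0.615% of all genes were called. With NFIB ΔIDR against EV 1 was called (FN1, adjusted p = 0.0105), where 0.652% of all genes were, and between both constructs 25 were, where 10.7% of all genes were. With NFIB WT against EV the count was 11 without NFIB WT library 1 and 17 without library 2, where 3.68% and 21.9% of all genes were called, and 0 without EV library 2 (0.0788%). With NFIB ΔIDR against EV it was 22 without either NFIB WT library (13.2% and 13.3% of all genes) and 0 without any single library of the 4 compared (at most 0.0358%). Between both constructs it was 2 with 1 of the NFIB ΔIDR libraries left out, whichever it was (0.815% and 0.783%), and 14 without either EV library (5.14% and 5.2%). These lists and the marker lists were chosen with earlier results of these data known, so their counts are not those of unselected sets. The following values are for NFIB WT against NFIB ΔIDR.

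Of the fibrillar collagens and elastin, the substrates of lysyl oxidases, 9 of 11 genes were tested, of which 3 were higher with NFIB WT and 3 lower, while DESeq2 called 3 higher and 0 lower, where edgeR called 5.52% of all genes higher and 5.19% lower. The list had a median log2 fold change of −0.16 where all genes had −0.00. ELN, which encodes elastin, averaged 23.7 ± 0.789 CPM in NFIB WT cells and 12.2 ± 0.750 CPM in NFIB ΔIDR cells (log2 fold change 0.96, edgeR adjusted p = 0.00255), and the EV libraries averaged 18.1 CPM, between both. COL1A2 (0.51, adjusted p = 0.0170) and COL3A1 (0.41, adjusted p = 0.0335) were higher too, whereas COL1A1 (−1.08, adjusted p = 0.0156), the partner chain of COL1A2 in type I collagen, and COL24A1 (−1.02, adjusted p = 0.0133) were lower, with DESeq2 adjusted p values of 0.101 and 0.0911. COL11A1, the other gene called lower, had 0 and 3 counts with NFIB WT, 17 and 16 with NFIB ΔIDR, and 5 and 3 with EV, and it passed the filter through the NFIB ΔIDR libraries alone. Against EV, 0 of the 9 were called with either construct, and 0 by DESeq2. At an unadjusted p under 0.05, 2 were higher and 1 lower for NFIB WT, against 6.93% and 6.42% of all genes. For NFIB ΔIDR, 4 were higher and 2 lower, against 7.77% and 7.42% of all genes.

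Of the enzymes and chaperones that modify collagen lysine and proline, 16 of 18 were tested, and 4 were higher with NFIB WT while 0 were lower. At an unadjusted p under 0.05, 7 were higher and 1 lower, against 13.9% and 13.6% of all genes, and DESeq2 called 0 lower. Among all genes edgeR called 5.52% higher and 5.19% lower. P4HA2, a catalytic chain of prolyl hydroxylase, averaged 4.88 ± 0.749 CPM in NFIB WT cells and 1.19 ± 0.226 CPM in NFIB ΔIDR cells (log2 fold change 2.02, edgeR adjusted p = 0.00508), with 29 and 42 counts in the NFIB WT libraries against 10 and 7 in those of NFIB ΔIDR. CRTAP and P3H3, parts of the prolyl 3-hydroxylation machinery (0.47, adjusted p = 0.0278, and 0.74, adjusted p = 0.0478), and COLGALT1, which adds galactose to hydroxylysine (0.33, adjusted p = 0.0475), were the others. The list's median log2 fold change was 0.16, and DESeq2 called 1 of its genes higher. Of the 10 tested proteins that mature or bind lysyl oxidases, EFEMP2, a fibulin that brings LOX to elastic fibres, was higher (2.81 ± 0.694 CPM in NFIB WT cells against 0.984 ± 0.139 CPM in NFIB ΔIDR cells, adjusted p = 0.0386), and FN1, fibronectin, was lower (432 ± 44.4 CPM in NFIB WT cells against 589 ± 29.2 CPM in NFIB ΔIDR cells, adjusted p = 0.0136). In the EV libraries EFEMP2 had 1.64 and 1.43 CPM, and FN1 had 347 and 371 CPM, below the libraries of both other groups.

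Of 16 other matrix metalloproteinases in the table, 4 were tested. The collagenase MMP13 had 1 and 2 counts with NFIB WT, 13 and 11 with NFIB ΔIDR, and 2 and 5 with EV. It was called lower with NFIB WT than with NFIB ΔIDR, but it passed the filter through the NFIB ΔIDR libraries alone, and DESeq2 gave no adjusted p for it. The membrane-bound MMP16 averaged 7.34 ± 1.28 CPM in NFIB WT cells and 4.03 ± 0.349 CPM in NFIB ΔIDR cells (0.85, adjusted p = 0.0385), and 7.25 ± 0.220 CPM in EV cells. MMP3 and MMP10, which lie in the same cluster as MMP1, had 0 to 2 counts in every library. Of the 4 other inhibitors tested, A2M, the plasma protease trap alpha-2-macroglobulin, was lower with NFIB WT (log2 fold change −1.02, adjusted p = 0.0131). TIMP3 had 61.9 and 52.3 CPM in NFIB WT cells, 73.1 and 70.6 CPM with NFIB ΔIDR, and 62.0 and 65.8 CPM with EV, a log2 fold change of −0.33 between both constructs that did not pass (adjusted p = 0.0767). SERPINE2, a protease nexin, was the gene called among 4 tested in the plasminogen system (−0.71, adjusted p = 0.00657). Of 11 tested ADAM and ADAMTS proteases, ADAM15 (0.92, adjusted p = 0.00418) and ADAM9 (0.37, adjusted p = 0.0148) were higher and ADAM17 (−0.39, adjusted p = 0.0232) was lower. For these lists too, the share of all genes that edgeR called was 5.52% higher and 5.19% lower. DESeq2 did not call EFEMP2, MMP16 or ADAM17 (adjusted p = 0.259, 0.221 and 0.0597).

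**Figure D5:**
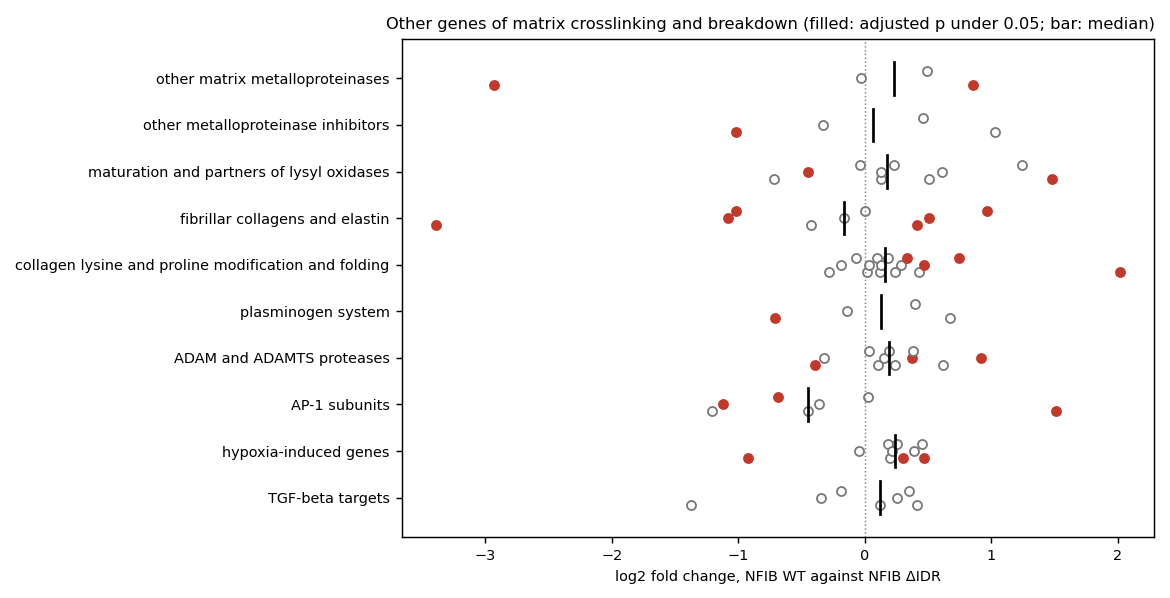
Log2 fold change with NFIB WT against NFIB ΔIDR for each tested gene of the 10 lists (filled points, edgeR adjusted p under 0.05), with a bar at the median of each list. edgeR called 3 higher and 3 lower in the fibrillar collagen list, where DESeq2 called 3 and 0, and 4 higher and 0 lower in the collagen modification list, where DESeq2 called 1 and 0.

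AP-1, hypoxia and TGF-beta are known to act on LOX, MMP1 or TIMP1 in other cells. The subunits of AP-1 itself and lists of hypoxia-induced genes and TGF-beta targets were therefore also read. Between both constructs edgeR called 5.52% of all genes higher and 5.19% lower. Of 7 tested AP-1 subunits, FOS was higher (40.2 ± 4.71 CPM in NFIB WT cells against 14.1 ± 2.77 CPM in NFIB ΔIDR cells, edgeR adjusted p = 0.000592), and FOSL2 (3.94 ± 0.263 CPM in NFIB WT cells against 8.63 ± 0.532 CPM in NFIB ΔIDR cells, adjusted p = 0.00965) and ATF3 (−0.69 on the log2 scale, adjusted p = 0.0340) were lower, and of the 3 DESeq2 called FOS alone. The EV libraries had 14.9 and 13.6 CPM of FOS, 3.96 and 4.66 CPM of FOSL2, and 11.2 and 9.92 CPM of ATF3. Of 10 tested hypoxia-induced genes, PDK1 (0.47, adjusted p = 0.0427) and PGK1 (0.30, adjusted p = 0.0321) were higher and NDRG1 (−0.93, adjusted p = 0.00470) was lower, whereas DESeq2 called 0 higher and NDRG1 alone lower. Of 7 tested TGF-beta targets 0 were called between both constructs, and 0 by DESeq2. At an unadjusted p under 0.05, 1 was higher and 1 lower, against 13.9% and 13.6% of all genes.

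Some markers of other cell types moved with LOX, TIMP1 and MMP1. The summed level of the fibroblast list was 503 to 506 CPM in NFIB WT cells, 351 to 353 CPM with NFIB ΔIDR, and 358 to 384 CPM with EV. Of its 9 tested genes, FAP and DCN were higher with NFIB WT against EV and 0 lower. Among all genes 0.452% were higher and 0.163% lower. At an unadjusted p under 0.05, 5 were higher and 1 lower, against 6.93% and 6.42% of all genes. DESeq2 called 2 higher and 0 lower, with DCN among them but not FAP (adjusted p = 0.104). Over 12963 genes with an adjusted p, DESeq2 called 56 higher and 16 lower. Between both constructs FAP, COL3A1, LUM and DCN were higher and PDGFRA and COL1A1 lower. Among all genes 5.52% were higher and 5.19% lower there. DESeq2 called 4 higher and 1 lower in the list, and 430 higher and 295 lower over 13401 genes. COL3A1 and COL1A1 are also in the collagen list. ACTA2, a smooth muscle actin of myofibroblasts, was the gene of the fibroblast list that rose with NFIB ΔIDR against EV, as MMP1 did (6.85 ± 0.123 CPM in NFIB ΔIDR cells, 1.76 CPM in EV cells, edgeR adjusted p = 0.0223). Among all genes 0.296% rose there, and DESeq2 gave no adjusted p for ACTA2. The 6 epithelial markers summed to 185 to 262 CPM in NFIB WT cells, 293 to 339 CPM with NFIB ΔIDR and 208 to 244 CPM with EV, most of it KRT18. EPCAM had 40 to 71 counts a library, and CDH1, KRT14 and KRT19 had 0 to 6. ESRP1 rose with NFIB ΔIDR against EV (log2 fold change 1.37, edgeR adjusted p = 0.0376), and DESeq2 gave no adjusted p for it there. Between both constructs ESRP1 was lower with NFIB WT (log2 fold change −1.56, edgeR adjusted p = 0.00511, DESeq2 adjusted p = 0.00990), where edgeR called 5.19% of all genes lower. The immune list summed to 256 to 319 CPM over all libraries and the endothelial list to 1.93 to 3.6 CPM. The summed Ewing sarcoma list was 2737 to 2769 CPM in NFIB WT cells, 2324 to 2378 CPM with NFIB ΔIDR, and 2467 to 2469 CPM with EV. CCND1, its largest part, had 1606 and 1553 CPM (NFIB WT), 1202 and 1163 (NFIB ΔIDR) and 1261 and 1254 (EV). Over its 7 genes the median log2 fold change was −0.07 for either construct against EV and 0.10 between both constructs. Against EV, edgeR called LIPI alone, higher in NFIB WT cells. Between both constructs CCND1 and LIPI were called higher and STEAP1 lower, and DESeq2 called 2 higher and 0 lower. The part of these movements in the levels of LOX, TIMP1 and MMP1 was not tested.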

How the data were processed

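RNA of SKNMC cells in 3 groups of 2 libraries was measured with the CORALL total RNA kit. Per the labels and methods, the authors converted reads with CASAVA 2.19, aligned them to hg19 with STAR 2.4.0h and counted them per RefSeq gene with featureCounts, and the deposited values are raw counts without normalization. The sources used here do not give whether the counting used strand, multi-mapping reads or the kit's identifiers.

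edgeR 4.0.16 (limma 3.58.1, R 4.3.3) was run with its quasi-likelihood F test after TMM scaling on the genes that filterByExpr kept (minimum count 10, minimum total 15), with a mean per group, all 6 libraries in a single fit and Benjamini-Hochberg adjustment over 13501 genes. Levels per kilobase use the deposited exon length, profiles a prior count of 2. Counting intervals are exact binomial. DESeq2 1.42.0 and the other alternatives are given in the closing section, and the steps were tested on simulated data. Extents are from GENCODE v44 lifted to hg19, and the plots were made in Python 3.11.15 with matplotlib 3.10.9. p values measure the spread between libraries, which the methods call biological duplicates without naming separate cultures. The members and lists were chosen with earlier results of these data known. Named beyond the 10 genes are up to 4 called genes per list and comparison with the smallest p, the 3 nearest profiles and overlapping genes. COL1A2, COL3A1, TIMP3, MMP3 and MMP10 were named after their values were seen. Other assays of the study were not analysed here.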

Additional observations from a re-analysis of the deposited data

How the results depend on the processing

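Of 421 values that the 27 fold changes of the 9 tested genes took under the alternatives, 387 kept direction and side of the threshold, 24 lost a call, 3 gained one and 7 turned direction, none of the last being a call. Scaling by RLE, upper quartile or library totals, robust estimation and a filter at a mean of 1 CPM kept all calls. Of the 2 calls with NFIB WT against EV, DESeq2 left 1 and a fit of those 2 groups alone 0. Of the 1 call with NFIB ΔIDR against EV, DESeq2 left 0. Leaving out each library gave 0 to 3 calls with NFIB WT against EV, 0 to 1 with NFIB ΔIDR against EV and 0 to 3 between both constructs. For the wider lists these ranges were 0 to 17, 0 to 22 and 2 to 37, against 1, 1 and 25 with all libraries, and the share of all genes called moved as well, between 0.0645% and 21.9%, 0.0286% and 13.3%, and 0.783% and 31.6%. The cause was not tested, beyond that fewer libraries entered each such fit. Leaving out each library, log2 fold changes that turned ranged from −0.0217 (without EV 2) to 0.0982 for TIMP2 with NFIB WT against EV. With NFIB ΔIDR against EV they ranged from −0.288 (without NFIB ΔIDR 1) to 0.793 for LOXL3, from −0.0016 (without EV 2) to 0.328 for MMP2, from −0.0209 (without EV 2; −0.0012 without NFIB ΔIDR 1) to 0.0592 for MMP14, and from −0.0889 to 0.0308 (without EV 1) for TIMP2. Between both constructs LOXL3 ranged from −0.123 (without NFIB ΔIDR 2) to 0.958.

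A replicate block left 2, 1 and 3 calls, with adjusted p values of 0.00707 for LOX and 0.0205 for TIMP1 with NFIB WT against EV and 0.0195 for LOXL2 between both constructs. Over all genes it raised the calls with NFIB WT against EV to 126 higher and 62 lower, against 61 and 22 without it. The numbers were not shown to pair the libraries, as deviations of same-numbered libraries correlated at 0.05 (NFIB WT and NFIB ΔIDR), 0.15 (NFIB WT and EV) and 0.02 (NFIB ΔIDR and EV). With 2 libraries a group, LOXL1, LOXL3, LOXL4 and MMP1 are limited by counts of 1 to 18.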
